A study of Homo sapiens with 12 samples.

Results

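Inhibitors of cyclin-dependent kinases and the retinoblastoma protein family were followed in proliferating and senescent human lung fibroblasts. The 10 genes were chosen by symbol, by a rule that uses no measured value although earlier results of these data were known, and were CDKN1A, CDKN1B and CDKN1C of the CIP/KIP family, CDKN2A, CDKN2B, CDKN2C and CDKN2D of the INK4 family, and RB1, RBL1 and RBL2 of the retinoblastoma (RB) family. They are 10 of the 38716 gene symbols in the files, of which 16451 had at least a fraction of a coding-sequence read in some library.

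The cells were IMR90, a primary line of normal fetal lung fibroblasts. They were compared while proliferating (Pro) and after serial passage into replicative senescence (Sen), the lasting arrest that cells reach when their divisions are used up, with 3 lysates per state. Each lysate gave a Ribo-seq library, made of the RNA fragments that bound ribosomes protect, and an RNA-seq library of poly(A)-selected RNA from a part of the same lysate, which makes 12 libraries in 4 groups of 3. No genetic change is given for either state, and lysis took place with cycloheximide, which holds ribosomes in place. IMR90 came as 2 isolates and the labels do not assign them to samples, so isolate and state cannot be told apart. For Pro, the names of the RNA-seq files hold a string close to DMSO, a common solvent, and no source says that solvent was added.

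Division is driven by cyclins bound to cyclin-dependent kinases (CDKs). Early in the cycle, CDK4 and CDK6 with D-type cyclins, then CDK2 with E-type cyclins, phosphorylate the RB family, which releases E2F transcription factors and lets them switch on the genes of DNA replication. INK4 proteins bind CDK4 and CDK6 and keep D-type cyclins away from them, whereas CIP/KIP proteins bind cyclin and kinase together and act on CDK2 most of all. Hypophosphorylated RB proteins hold E2F-controlled promoters silent, and p16INK4a (from CDKN2A) and p21 (from CDKN1A) are the textbook inhibitors of senescent fibroblasts.

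Sequence sets how far the reads of these genes can be told apart. CDKN2A (GRCh37, chromosome 9, 21967751 to 21995300, minus strand, 3 exons in the reference transcript) and CDKN2B (chromosome 9, 22002902 to 22009304, minus strand, 2 exons) are neighbours whose coding sequences match at 331 of 408 aligned bases (81.13%). A footprint is about as long as the 30-base windows used here. Of the windows of the coding sequence, 68 of 439 in CDKN2A (15.49%) and 68 of 385 in CDKN2B (17.662%) occurred in both genes, and the longest common run was 80 bases. The pair of aligned stretches that differ most within the exon of that run is shown, with the 7 mismatches in capitals. Reads from there can be told apart. Other exons were not searched for this pair.

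CDKN2A, most different (chr9:21970958-21970987, minus strand): gcgaTgtCgcaCggtacctgcgcGcGgcTG
CDKN2B, most different (chr9:22005997-22006026, minus strand): gcgaCgtTgcaGggtacctgcgcAcAgcCA

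A read from within a common window cannot be assigned to CDKN2A or CDKN2B, and how the authors placed such reads is not given, so the split of reads between them is uncertain to that extent. CDKN2A also encodes p14ARF, an unrelated protein read in another frame of a common exon, and the gene-level values cannot separate it from p16INK4a. Among the other genes, CDKN1C had 18 of 886 windows found in a transcript of another gene and the remaining 7 had none. Annotated genes on the opposite strand overlap 8 of the 10, including the long non-coding RNA CDKN2B-AS1 at CDKN2A and CDKN2B, GPR19 at CDKN1B, LPAR6 and RCBTB2 at RB1 and AKTIP at RBL2. Whether counting used strand is not given.

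Promoters of the genes were searched for the E2F site in the spellings TTTCGCGC, TTTGGCGC, TTTCCCGC and TTTGCCGC, on both strands of the RefSeq window (GRCh38.p14) that runs around each start site. RefSeq windows were at hand for 9 of the 10 genes, all but CDKN1C, as 13 windows. RBL1, which encodes the pocket protein p107, was the only member with a match. It is shown because its window held 2 matches, in capitals, placed from -26 to -9 relative to the start site.

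RBL1, promoter (GRCh38.p14, chr20:37096000-37096029, minus strand): gcagatTTTCGCGCgcTTTGGCGCaggtgg

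Over all promoters, 1164 of 35097 windows (3.32%) held at least 1 match and 51 (0.15%) held 2 or more. Such a match describes the letters only.

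RNA-seq libraries held 7902427 to 14144455 reads in mRNA regions, and Ribo-seq libraries 54421 to 1718521 reads in coding sequences (CDS), a 31.6-fold range. Pro 1 and Sen 2 were the shallow Ribo-seq libraries. They also differed in make-up, with 34.4% of all counted reads in the CDS in Pro 1 and 15.0% in Sen 2. In the other Ribo-seq libraries this share was 54.7% to 88.8%. Effects of low depth and of a low CDS share cannot be told apart in these libraries. Levels are given in CPM, which sets reads against the size of their library after TMM scaling, and a floor of 3 reads stood at 0.220 to 0.366 CPM in RNA-seq but at 52.1 CPM in the Ribo-seq library of Pro 1 and 52.7 CPM in that of Sen 2, against 1.79 to 5.83 CPM in the other Ribo-seq libraries. Of these markers, all 11 of fibroblasts were found, with summed mRNA of 31703 to 35665 CPM in Pro and 30147 to 34888 CPM in Sen. The 8 epithelial markers summed to at most 2.52 CPM in any RNA-seq library, and SFTPC, CDH5, CD3E and ITGAM had no read. Summed endothelial markers stood at 56.3 to 63.5 CPM in Pro and 94.7 to 106 CPM in Sen, nearly all of it TEK, and blood cell markers at 21.8 to 23.8 CPM in Pro and 36.3 to 42.2 CPM in Sen, mostly CD68. Their part in the results was not tested. In bulk libraries, fewer cells with a transcript and less of it per cell cannot be told apart.

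The mRNA of 8 of the 10 genes changed with senescence, by the quasi-likelihood test of edgeR at an adjusted p-value under 0.15. CDKN1A, CDKN2A, CDKN2B and CDKN2D rose, whereas CDKN1B, CDKN1C, CDKN2C and RBL1 fell. RB1 and RBL2 did not pass the threshold. Over all 12787 genes tested, 73.6% changed, 36.6% higher and 37.0% lower, so 8 of 10 stood near the background. The same 8 genes had levels that did not overlap between the states, as did 67.8% of all genes. The median log2 change was 0.01 over the 10 genes and -0.0058 over all genes. On library totals without TMM factors, the median of all genes shifted to -0.11 and the higher share of changed genes fell to 40.4% from 49.8%, and the calls of the 8 genes stood.

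Ribosome-protected fragments (RPF), the CDS reads of Ribo-seq, could be tested for 6 of the 10 genes. CDKN1C, CDKN2C, CDKN2D and RBL1 had too few to pass the filter on low counts. CDKN1A, CDKN2A and CDKN2B rose, RB1 fell, and CDKN1B and RBL2 did not pass the threshold. Among the 7521 genes tested, 54.4% changed in RPF, 27.5% higher and 26.9% lower. Only CDKN1A had levels that did not overlap between the states, against 32.7% of all genes. On library totals, the median of all genes shifted to -0.14, with 39.1% of changed genes higher in place of 50.5%, and the same number of members, 4, passed the threshold.

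Translational efficiency (TE) is the amount of RPF per mRNA, and its change was the interaction of library type with state over the 12 libraries. CDKN2A and CDKN2B rose in TE, and CDKN1A, CDKN1B, RB1 and RBL2 did not pass the threshold. Among 7473 genes, 10.0% changed in TE, with 6.32% higher and 3.73% lower. The lysate values of CDKN1B alone did not overlap among the 6 members tested, as in 16.2% of all genes. The split between higher and lower depended on the scaling. Changed genes were higher in 62.8% of cases with the scaling used here, 52.4% with RLE factors, 52.1% with factors from the genes of each library type alone, 48.1% with TMM over all 12 libraries and 44.1% on library totals. Both members passed the threshold under each of these scalings.

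**Figure D1:**
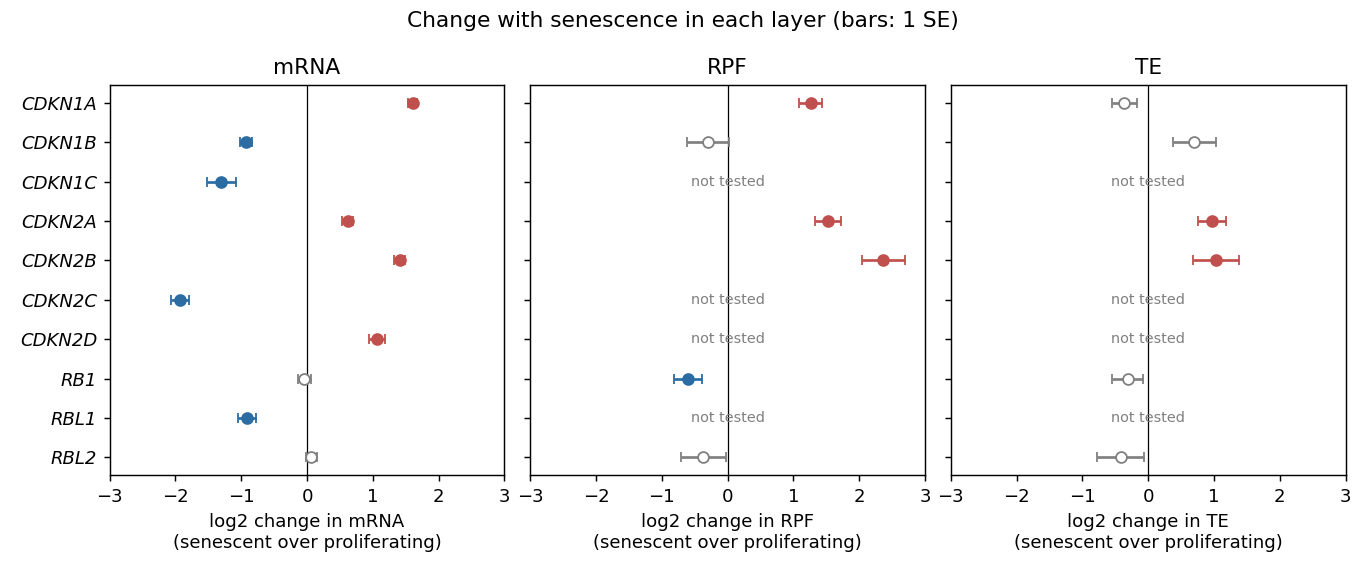
Log2 change with senescence of the 10 genes in mRNA, RPF and TE (x axes), with bars of 1 SE. Filled red points passed the threshold as higher, filled blue points as lower, and open grey points did not pass it. The highest RPF point is CDKN2B at 2.37 and the lowest mRNA point is CDKN2C at -1.93, a gene with too few footprints for a test.

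CDKN1A encodes p21, the CIP/KIP inhibitor that is induced after DNA damage and telomere loss. It had the most mRNA reads of the 10 genes, with 513, 509 and 491 CPM in Pro 1, 2 and 3 and 1553, 1464 and 1582 CPM in Sen 1, 2 and 3. All senescent libraries were above all proliferating libraries. The log2 change was 1.60 (SE 0.072, adjusted p = 2.65e-14), a 3.04-fold rise. Its footprints went from 538, 335 and 292 CPM in Pro to 959, 598 and 694 CPM in Sen. The lowest senescent value came from the shallow library Sen 2 (34 reads) and the highest proliferating value from the shallow library Pro 1 (31 reads), and the states still did not overlap. RPF rose by 1.26 on the log2 scale (SE 0.18, adjusted p = 7.82e-09) and by 1.44 without both shallow lysates.

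The footprints of CDKN1A rose by a smaller factor than its mRNA, but the difference did not pass the threshold. Its log2 TE was 0.09, -0.60 and -0.75 in Pro and -0.69, -1.27 and -1.19 in Sen, so that Sen 1 lay above Pro 3. The change in TE was -0.36 (SE 0.19, adjusted p = 0.30).

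CDKN1B encodes p27, the CIP/KIP inhibitor that is best known in quiescent cells and is held down in dividing cells by degradation. Its mRNA fell from 34.5, 33.2 and 37.5 CPM in Pro to 18.3, 18.0 and 18.9 CPM in Sen. These groups were far apart beside their spread, with a log2 change of -0.93 (SE 0.093, adjusted p = 1.17e-08). Footprints did not follow to a degree that passed the test. They were at 17.4, 34.1 and 31.0 CPM in Pro and 25.1, 17.6 and 27.2 CPM in Sen, which overlap, and the log2 change in RPF was -0.30 (SE 0.31, adjusted p = 0.47). The log2 TE was -0.41, 0.07 and -0.26 in Pro and 0.49, 0.55 and 0.57 in Sen. Every senescent lysate thus stood above every proliferating one, although Pro 1 and Sen 2 rest on 1 footprint each. The change in TE of 0.70 (SE 0.33) missed the threshold, with an adjusted p of 0.23.

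CDKN1C, which encodes p57, an imprinted inhibitor of embryonic growth, had the fewest mRNA reads. It was at 3.72, 4.53 and 3.91 CPM in Pro and 1.38, 1.91 and 1.55 CPM in Sen, from 125.5 reads against 56 reads in all. The groups did not overlap, and the log2 change was -1.30 (SE 0.22, adjusted p = 1.7e-05). Footprints were 3, 3 and 15 reads in Pro and 2.5, 0 and 0 reads in Sen. Without the filter on low counts, the log2 change in RPF was -3.01 (SE 0.86, adjusted p = 0.0035).

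CDKN2A, the gene of p16INK4a and p14ARF, rose in all 3 measures. Its mRNA was at 43.1, 50.8 and 51.8 CPM in Pro and 74.0, 67.3 and 83.5 CPM in Sen. The groups did not overlap, but the log2 change of 0.62 (SE 0.090, adjusted p = 3.2e-06), or 1.53-fold, was the least of the 4 rises among the members. The share of its mRNA reads that lay in the CDS was 62.7%, 66.5% and 59.7% in Pro and 72.9%, 68.1% and 72.7% in Sen. With CDS reads alone as the mRNA, the log2 change was 0.81, and that in TE was 0.75 (adjusted p = 0.036).

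The footprints of CDKN2A rose more than its mRNA. They were at 86.8, 53.4 and 60.5 CPM in Pro and 186, 70.3 and 161 CPM in Sen. Sen 1 and Sen 3, with 278 and 83 reads, were above all proliferating libraries, while the shallow library Sen 2 (4 reads) lay below the shallow library Pro 1 (5 reads). The log2 change in RPF was 1.53 (SE 0.19, adjusted p = 6.31e-10), a 2.88-fold rise. By lysate, the log2 TE of CDKN2A was 1.14, 0.09 and 0.24 in Pro and 1.33, 0.23 and 0.96 in Sen. These values overlap, and their means were 0.49 and 0.84. The fitted TE rose by 0.96 (SE 0.21, adjusted p = 0.0027) and by 1.03 without both shallow lysates. Without Sen 1, which held most of the senescent footprints, the change in TE was 0.68 and the adjusted p 0.33. With the replicate number as a block it was 0.61 with an adjusted p of 0.49, and neither voom (adjusted p = 0.52) nor DESeq2 (adjusted p = 0.999) called it.

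CDKN2B encodes p15INK4b, the INK4 inhibitor that TGF-beta induces. Its mRNA was at 24.8, 23.0 and 27.0 CPM in Pro and 66.1, 63.8 and 68.8 CPM in Sen. The rise was even across the libraries, with a log2 change of 1.41 (SE 0.086, adjusted p = 3.93e-12) or 2.66-fold. Footprints were at 17.4, 10.4 and 12.8 CPM in Pro and 67.7, 0 and 68.0 CPM in Sen. The 0 is that of the shallow library Sen 2, in which the floor of 3 reads stood at 52.7 CPM. The other senescent libraries agreed closely with 101 and 35 reads, and both lay above that floor. Sen 2 thus fell short of them by more than the floor allows. RPF rose by 2.37 (SE 0.32, adjusted p = 5.29e-09) on the log2 scale, the largest RPF rise among the members.

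The gain of CDKN2B in TE was less firm than that in RPF. Its log2 TE was 0.06, -1.04 and -1.01 in Pro and 0.04, -2.86 and 0.00 in Sen, and the group means of -0.67 and -0.94 run against the test because the senescent mean includes the library without a footprint. The fitted change in TE, which weighs libraries by depth, was 1.04 (SE 0.35, adjusted p = 0.081), and it was 1.10 (adjusted p = 0.040) without both shallow lysates. Leaving out Pro 2, Pro 3, Sen 1 or Sen 3 ended the call, with adjusted p-values of 0.29, 0.47, 0.47 and 0.28. The call was also lost with the replicate block (log2 change 0.76, adjusted p = 0.61), voom and DESeq2.

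CDKN2C encodes p18INK4c, an INK4 protein of cycling and developing cells whose gene E2F can activate. It had the largest change in mRNA of the 10, from 21.8, 18.8 and 20.5 CPM in Pro to 5.53, 4.62 and 5.94 CPM in Sen. The log2 change was -1.93 (SE 0.13, adjusted p = 2.3e-11), which leaves 0.262 of the proliferating level. Footprints in its CDS numbered 0, 2 and 4 in Pro and 2, 0 and 0 in Sen, too few for a comparison. Its annotated 5′ UTR held more of them, with 1, 2 and 12 reads in Pro and none in Sen. The 5′ UTR also took most of its mRNA reads, 60.3% to 65.0% in Pro and 57.1% to 75.4% in Sen, while 9.25% to 12.3% of the mRNA reads of all genes lay there.

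CDKN2D encodes p19INK4d, an INK4 protein known from neurons, where it helps to keep cells out of division. Its mRNA rose from 7.69, 6.58 and 7.82 CPM in Pro to 14.8, 15.5 and 15.6 CPM in Sen. The log2 change was 1.06 (SE 0.12, adjusted p = 1.27e-07), or 2.09-fold, with no overlap. Footprints numbered 0, 5 and 5 in Pro and 12, 0 and 2 in Sen, and without the filter on low counts the log2 change in RPF was 0.62 (SE 0.66, adjusted p = 0.52).

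**Figure D2:**
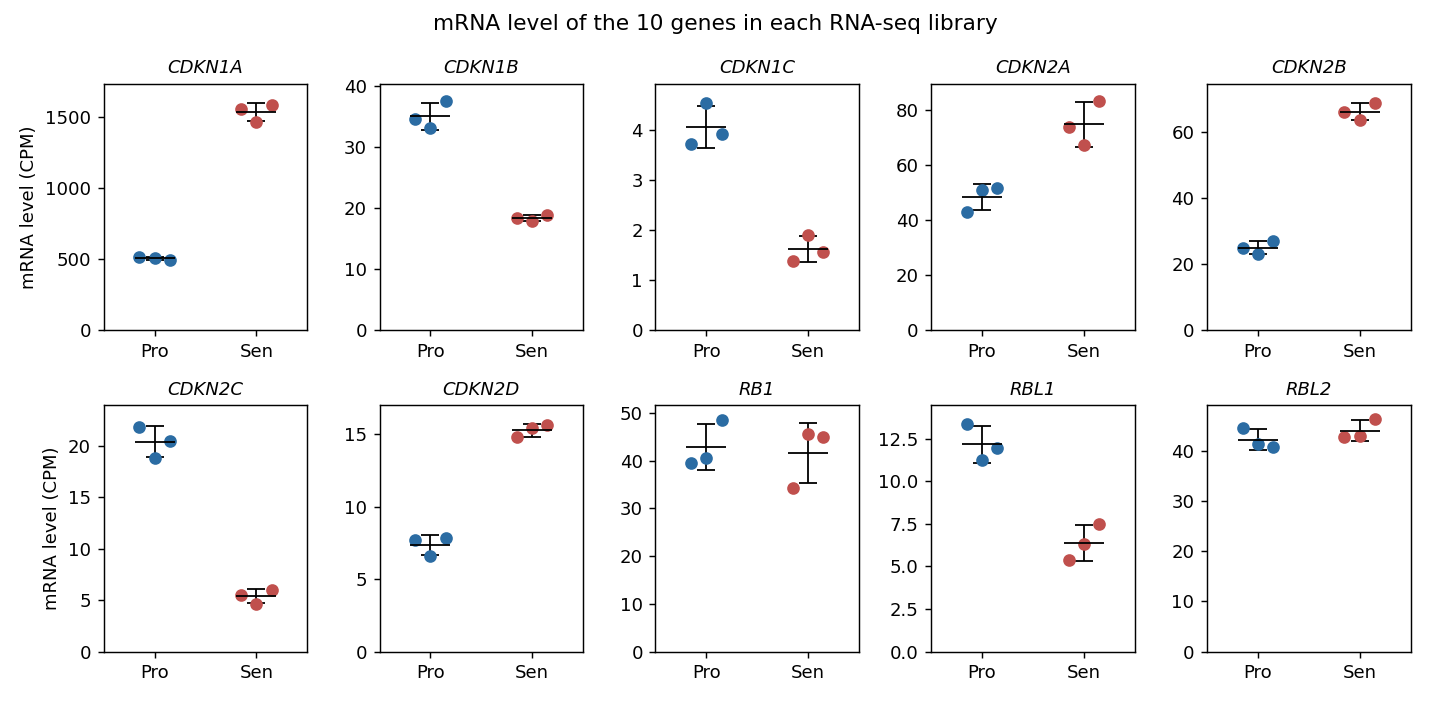
mRNA level (y axis, CPM) of each gene in the 3 proliferating (blue) and 3 senescent (red) RNA-seq libraries, with the mean and SD in black. CDKN1A reaches 1582 CPM, CDKN1C stays under 5 CPM, and RB1 and RBL2 are the only genes whose groups overlap.

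RB1 encodes pRB, the pocket protein that binds the activating E2F proteins. Its mRNA was at 39.5, 40.5 and 48.4 CPM in Pro and 34.3, 45.5 and 44.9 CPM in Sen, which overlap. The log2 change was -0.04 (SE 0.10, adjusted p = 0.76), with an approximate 95% interval from -0.24 to 0.16. Footprints were at 34.7, 83.1 and 97.8 CPM in Pro and 55.6, 35.2 and 70.0 CPM in Sen. The deeper proliferating libraries (56 and 164 reads) were above the deeper senescent ones (83 and 36 reads), whereas Pro 1 and Sen 2 held 2 reads each. RPF fell by 0.61 on the log2 scale (SE 0.21, adjusted p = 0.016), and the change in TE of -0.31 (SE 0.24, adjusted p = 0.51) did not pass the threshold. The RPF call was lost without Pro 3 (log2 change -0.39, adjusted p = 0.38), without Sen 1 (-0.43, adjusted p = 0.34), with the replicate block (-0.42, adjusted p = 0.39) and with DESeq2 (-0.50, adjusted p = 0.63).

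RBL1, the p107 gene with the pair of E2F-site matches shown above, was the only RB family gene whose mRNA changed. It was at 13.4, 11.2 and 11.96 CPM in Pro and 5.37, 6.29 and 7.51 CPM in Sen, without overlap, a log2 change of -0.91 (SE 0.14, adjusted p = 7.17e-06). Its footprints were 0, 17 and 46 reads in Pro and 6, 0 and 4 reads in Sen, and it missed the filter on low counts. In CPM these are 25.2 and 27.4 in Pro 2 and Pro 3 against 4.02 and 7.78 in Sen 1 and Sen 3. Without both shallow lysates it was tested, and RPF fell by 2.38 (SE 0.43, adjusted p = 9.83e-05) on the log2 scale. TE then fell by 1.40 (SE 0.47, adjusted p = 0.087), whereas with every library and no filter the TE change of -1.40 had an adjusted p of 0.21.

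RBL2 encodes p130, the pocket protein that joins the DREAM repressor complex in arrested cells. Its mRNA was at 44.7, 41.3 and 40.9 CPM in Pro and 42.8, 43.0 and 46.4 CPM in Sen, which overlap. The log2 change was 0.06 (SE 0.081, adjusted p = 0.51), with an approximate 95% interval from -0.10 to 0.22. Footprints were at 17.4, 31.2 and 23.8 CPM in Pro and 18.8, 52.7 and 19.4 CPM in Sen, and the highest of these values stood for 3 reads in the shallow library Sen 2. Neither RPF (log2 change -0.37, SE 0.34, adjusted p = 0.40) nor TE (-0.42, SE 0.35, adjusted p = 0.55) passed the threshold.

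**Figure D3:**
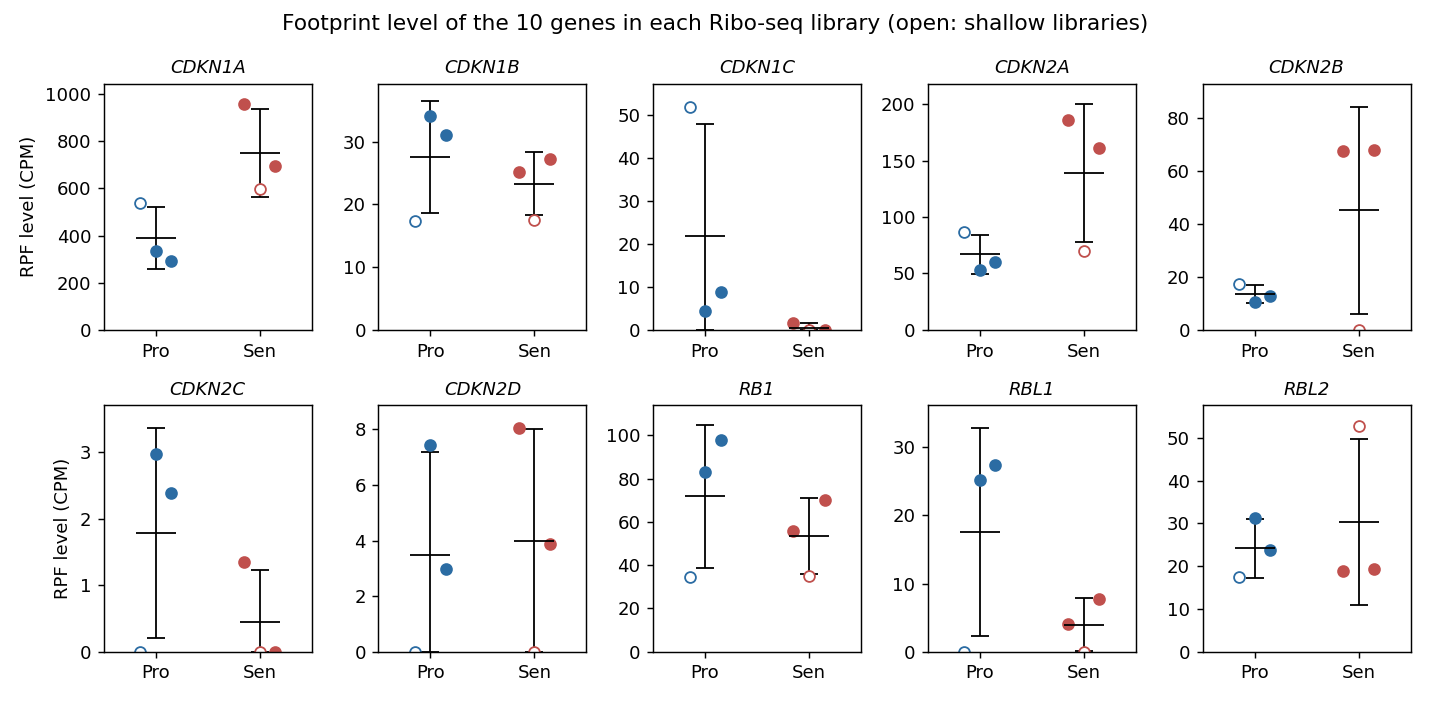
RPF level (y axis, CPM) of each gene in the 3 proliferating (blue) and 3 senescent (red) Ribo-seq libraries, with the mean and SD in black and the shallow libraries Pro 1 and Sen 2 as open circles. CDKN1A, CDKN2A and CDKN2B are higher in the deeper senescent libraries, RB1 and RBL1 are lower there, and the open circle of CDKN2B in Sen lies at 0.

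Levels of different genes were compared per kilobase of the coding sequence, in CDS reads. By RNA-seq density in Pro, the order was CDKN1A (239 ± 9.53 CPM per kb, SD, n = 3), CDKN2A (65.4 ± 7.27), CDKN1B (24.2 ± 2.12), CDKN2B (17.9 ± 2.59), CDKN2C (14.2 ± 2.999), RB1 (11.3 ± 0.953), RBL2 (9.86 ± 0.576), CDKN2D (7.98 ± 0.227), RBL1 (2.65 ± 0.316) and CDKN1C (2.56 ± 0.630). Neighbours whose libraries overlapped in this order were CDKN2B with CDKN2C, CDKN2C with RB1, and RBL1 with CDKN1C. The ranges of RB1 and RBL2 were nearly in contact.

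In Sen, CDKN1A was again first at 756 ± 83.2 CPM per kb, then CDKN2A (114 ± 15.9), CDKN2B (42.4 ± 5.78), CDKN2D (16.9 ± 1.09), CDKN1B (13.2 ± 1.41), RB1 (10.8 ± 1.52), RBL2 (10.2 ± 0.193), CDKN2C (3.42 ± 0.462), RBL1 (1.22 ± 0.200) and CDKN1C (1.10 ± 0.176). CDKN1B with RB1, RB1 with RBL2, and RBL1 with CDKN1C overlapped. CDKN2D passed from the eighth rank to the fourth, while CDKN2C passed from the fifth to the eighth. CDKN2A reads include those of p14ARF, so its density is not that of p16INK4a alone.

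By footprint density, CDKN1A led in both states, with 790 ± 267 CPM per kb in Pro and 1525 ± 381 CPM per kb in Sen, followed by CDKN2A with 143 ± 37.5 and 298 ± 130. In Pro, both steps were wider than the spread, since the libraries of CDKN1A lay above those of CDKN2A and the latter above those of CDKN1B (46.3 ± 15.0). From there down, every neighbouring pair in Pro overlapped. In Sen, CDKN1A was separated from CDKN2A, and CDKN1B (39.2 ± 8.53) from RB1 (19.2 ± 6.29), and all other neighbours overlapped.

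Within the CIP/KIP family, CDKN1A made up 89.9% ± 0.707 (SD, n = 3) of the CDS reads per kb in the RNA-seq of Pro and 98.1% ± 0.0383 in Sen. CDKN1B held 9.12% ± 0.749 in Pro and 1.71% ± 0.0151 in Sen. The footprints gave a like make-up, with CDKN1A at 91.6% ± 1.07 in Pro and 97.4% ± 0.498 in Sen. Over the whole family, the RNA-seq density was 266 ± 10.8 CPM per kb in Pro and 771 ± 84.5 in Sen.

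Within the INK4 family, CDKN2A held 61.9% ± 3.01 of the RNA-seq density in Pro and 64.5% ± 0.933 in Sen. CDKN2B went from 16.9% ± 1.48 to 23.9% ± 0.438, and CDKN2D from 7.58% ± 0.392 to 9.58% ± 0.701. CDKN2C went from 13.6% ± 3.77 in Pro to 1.98% ± 0.497 in Sen. Among footprints, CDKN2A and CDKN2B together took nearly all of the family, and the senescent shares (78.4% ± 18.7 for CDKN2A and 20.0% ± 17.4 for CDKN2B) had a wide spread because CDKN2A supplied all 4 INK4 reads of the shallow library Sen 2. The INK4 RNA-seq density was 105 ± 6.92 CPM per kb in Pro and 177 ± 22.2 in Sen.

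Within the RB family, RB1 and RBL2 held 47.4% ± 3.76 and 41.4% ± 2.52 of the RNA-seq density in Pro and 48.3% ± 3.46 and 46.2% ± 3.35 in Sen. RBL1 went from 11.1% ± 1.30 to 5.51% ± 0.698. The summed density of 23.8 ± 0.360 CPM per kb in Pro and 22.2 ± 1.69 in Sen differed little, with 23.4 as the lowest value of Pro and 23.3 as the highest of Sen. In footprints, RB1 was the larger part, at 68.0% ± 3.83 in Pro and 65.1% ± 17.4 in Sen.

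**Figure D4:**
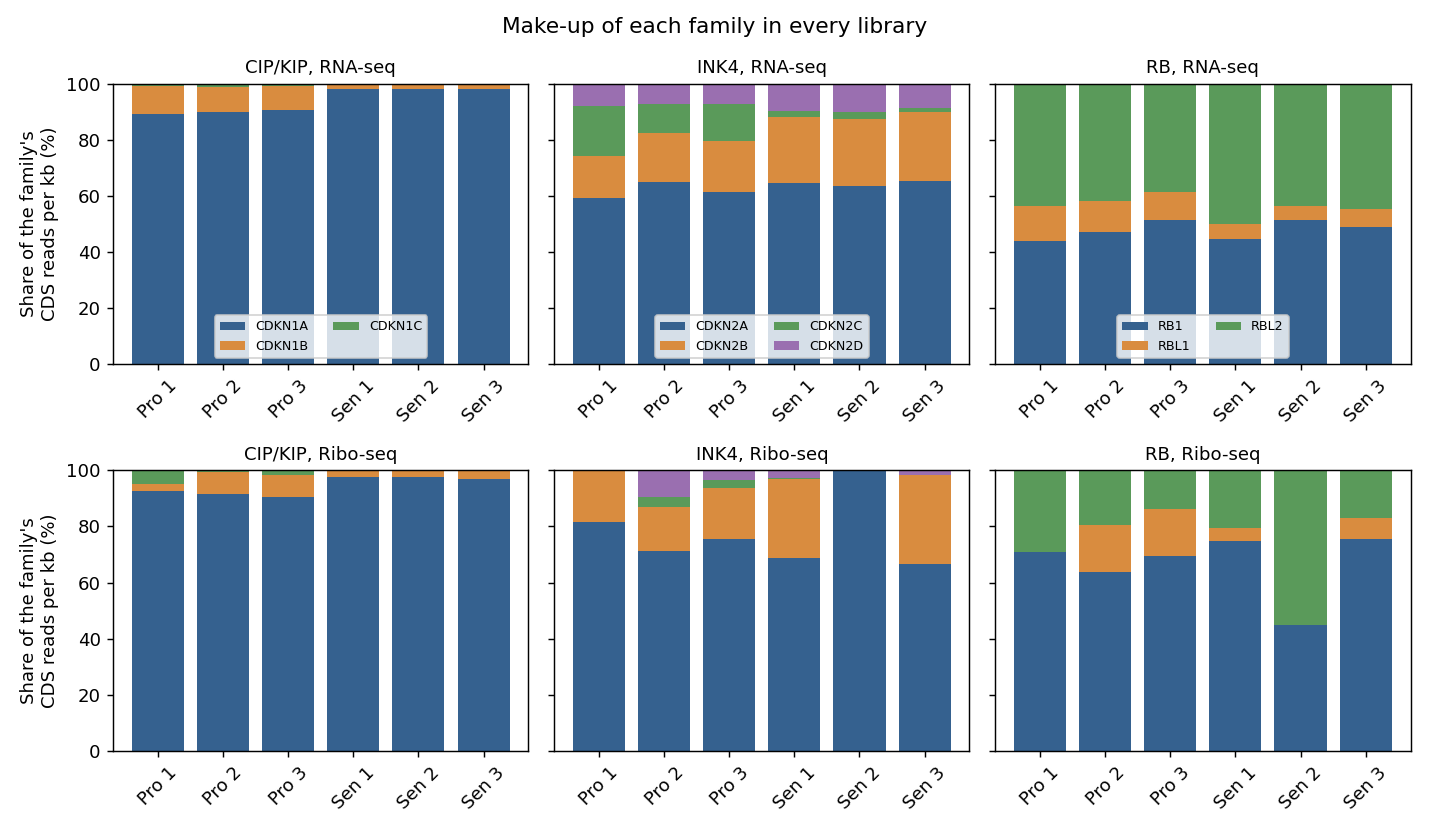
Share of each gene (y axis, percent) in the CDS reads per kb of its family, for each of the 6 RNA-seq libraries (top) and 6 Ribo-seq libraries (bottom). In RNA-seq, CDKN1A fills 98.1% of the CIP/KIP bar in Sen and the CDKN2C part of the INK4 bar goes from 13.6% to 1.98%. The bars of Pro 1 and Sen 2 in Ribo-seq rest on few reads.

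The shares of mRNA reads in the 5′ UTR, CDS and 3′ UTR were compared between the states for each gene with exact permutation tests, 30 in all and two-sided. In 2 of them the states did not overlap. These were the CDS share of CDKN2A given above and the 3′ UTR share of RBL1, which was 27.9%, 23.1% and 32.3% in Pro and 34.7%, 41.7% and 33.1% in Sen. Both had p = 0.1, the smallest p that this exact test of 3 against 3 allows, and 0.75 after Benjamini-Hochberg adjustment. Neither passed the threshold. Without any difference, the states separate in this way with a probability of 0.1 per test. How often the region shares of all genes separate was not counted. Over all genes, the 3′ UTR share was 24.7% to 25.1% in Pro and 26.8% to 28.9% in Sen.

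Few footprints of the members lay outside the CDS. CDKN1A had the most in the 3′ UTR, with 2, 1 and 5 reads in Pro and 43, 5 and 17 in Sen, or 1.07 per 100 CDS reads in Pro and 3.57 in Sen. Over all genes, the 3′ UTR held 16.0, 2.05 and 1.46 reads per 100 CDS reads in Pro and 3.84, 36.4 and 6.02 in Sen. CDKN1A was below its own library's ratio in every library.

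The kinases that these inhibitors bind did not all move in the same direction, and neither did the cyclins. In the list of D-type and E-type cyclins with their kinases, all 8 genes changed in mRNA, 5 higher and 3 lower, with a median log2 change of 0.83. Among all genes tested, 73.6% changed. All D-type cyclins rose. CCND2 went from 16.6 ± 0.234 to 172 ± 14.7 CPM (log2 change 3.38, SE 0.090), CCND1 from 849 ± 13.2 to 3800 ± 333 CPM (2.16, SE 0.080) and CCND3 from 91.7 ± 5.21 to 218 ± 14.1 CPM (1.25, SE 0.075). Their footprints rose as well, by 4.26 for CCND2, 2.03 for CCND1 and 1.89 for CCND3 on the log2 scale.

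Their partner kinases parted. CDK6 mRNA rose from 133 ± 15.2 to 381 ± 13.9 CPM (log2 change 1.52, SE 0.080) while CDK4 mRNA fell from 155 ± 12.3 to 74.3 ± 8.54 CPM (-1.06, SE 0.085), and footprints went the same ways, 1.78 for CDK6 and -0.78 for CDK4. By coding length, CDK4 stood at 126 ± 13.5 CPM per kb in RNA-seq against 11.5 ± 1.24 for CDK6 in Pro, and at 55.6 ± 7.75 against 32.2 ± 5.92 in Sen. The footprint densities were 105 ± 11.1 for CDK4 and 58.1 ± 38.5 for CDK6 in Pro, and 53.02 ± 12.7 and 272 ± 27.9 in Sen, so that CDK4 led in Pro in the mean only, since its lowest library was at 93.1 and the highest of CDK6 at 94.5. CDK2, the main target of CIP/KIP proteins, fell in mRNA by 0.15 on the log2 scale (SE 0.078, adjusted p = 0.10), and its RPF did not pass the threshold. CCNE1 mRNA rose by 0.41 and CCNE2 mRNA fell by 0.60. In TE, CCND2 (0.92, adjusted p = 0.025) and CCND3 (0.63, adjusted p = 0.059) rose, and CCND1, CDK2, CDK4 and CDK6 did not pass the threshold. TE calls depended on the test, and over all genes they fell from 751 to 28 with DESeq2 and 47 with voom.

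Among the 10 E2F and DP genes, 2 were higher and 5 lower in mRNA, with a median log2 change of -0.22, and this number stood near the share of 73.6% of all genes that changed. E2F8 (-1.56), E2F2 (-1.13), E2F5 (-0.91), E2F7 (-0.33) and E2F1 (-0.22) fell. E2F2 and E2F1 are activating members that pRB holds, E2F5 pairs with the pocket proteins p107 and p130, and E2F7 and E2F8 repress without them. E2F3 (0.20) and TFDP1 (0.13), the common partner of E2F proteins, rose, and E2F4, E2F6 and TFDP2 did not pass the threshold. Only TFDP1, TFDP2 and E2F4 could be tested in RPF, where TFDP1 rose by 0.55, TFDP2 fell by 0.79 and E2F4 did not pass the threshold. The calls of E2F3 and TFDP1 were lost on library totals, at 0.098 and 0.026 in mRNA, as was that of TFDP1 in RPF (0.41, adjusted p = 0.20).

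Most genes of the lists on E2F targets, later cyclins, MuvB and RB-binding chromatin proteins were lower in mRNA. All 16 listed E2F targets of DNA replication were lower in mRNA (median log2 change -1.28) and in RPF (median -1.33), where 37.0% and 26.9% of all genes were lower, led in mRNA by MCM7 (-1.77) and MCM2 (-1.76), subunits of the replicative helicase. Of 14 A-type and B-type cyclins, CDK1 and CDK-activating factors, 11 were lower and 1 higher in mRNA (median -1.16). CCNB2 (-1.93) and CDC25C (-1.92), a mitotic cyclin and the phosphatase that frees CDK1, fell most, and CDK7, of the CDK-activating kinase, rose by 0.24, a call that was lost on library totals (0.13). Of the 7 genes of the MuvB core, which p107 or p130 turns into the DREAM repressor, and its activator partners, 5 were lower and 1 higher. FOXM1 (-1.90) and MYBL2 (-1.58), which turn MuvB into an activator, fell most, and the core subunit LIN37 rose by 0.50. Of 12 chromatin proteins that bind RB, 10 were lower and none higher, with RBBP8 (-0.93) and JARID2 (-0.84) at the low end. Footprints of 10 of 13 genes of the A-type and B-type cyclin list, 2 of 3 MuvB genes and 6 of 9 chromatin genes were lower, and LIN37 was the single gene of these lists that was higher, by 1.32. In TE, 2 of the 16 E2F targets were higher and none lower, beside 6.32% higher and 3.73% lower among all genes. In the A-type and B-type cyclin list, 2 of the 13 genes were lower and none higher in TE. Both counts were 0 with DESeq2 and with voom.

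Of 11 genes for the turnover and import of CDK inhibitors, 2 were higher, 3 lower and 6 not past the threshold in mRNA (median log2 change 0.01), beside 36.6% higher and 37.0% lower among all genes. DTL (-1.38), a substrate receptor through which p21 is degraded, and SKP2 (-0.35), the receptor for p27, fell. SKP1 (0.22), the adaptor of the SKP2 ligase, and FBXW7 (0.21), the receptor for cyclin E, rose, but neither passed the threshold on library totals (0.11 and 0.10). SKP2 footprints did not pass the threshold (log2 change -0.47, adjusted p = 0.21).

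Of 23 upstream regulators of the inhibitors, 22 could be tested in mRNA, and 6 were higher and 14 lower (median log2 change -0.32), beside 36.6% and 37.0% of all genes. Of the higher calls, those of MDM2 and SMAD2, named after their values were seen, were lost on library totals (0.041 and 0.10). EZH2 (-1.78), the Polycomb methyltransferase that silences the CDKN2A and CDKN2B locus in dividing cells, and ID2 (-0.90) fell most. ID1 (1.80) and ID3 (1.22), inhibitors of the helix-loop-helix factors that activate CDKN2A, rose most, and both rose in RPF, by 1.61 and 1.38.

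Neighbours of the genes on their chromosomes were also listed. Of 14 such symbols, 9 were in the files and 4 could be tested in mRNA. PHLDA2 (log2 change 1.04) and SLC22A18 (0.89), which share the imprinted cluster of CDKN1C, rose where CDKN1C fell. MTAP (-0.55), next to CDKN2A, and LPAR6 (-0.94), which lies within RB1, fell where CDKN2A rose and RB1 did not pass the threshold. Whether counting kept reads of LPAR6 and RB1 apart is not given.

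**Figure D5:**
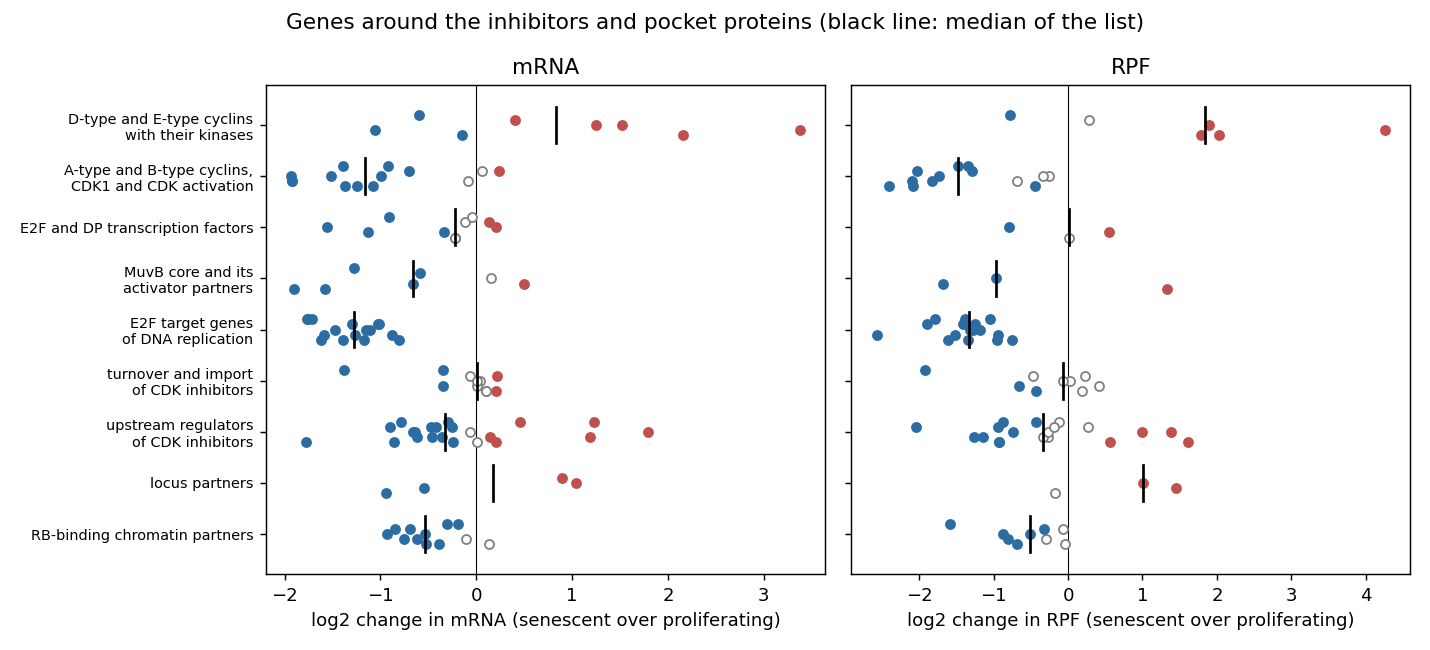
Log2 change with senescence (x axes) in mRNA and RPF of each tested gene of 9 lists (rows), with the median of each list as a black line. Red points passed the threshold as higher, blue as lower, and open points did not pass it. All 16 E2F targets of DNA replication are blue in both layers, and the D-type cyclins and CDK6 are the red points of the top row that lie above 1.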

How the data were processed

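Ribo-seq and RNA-seq tables of 3 proliferating and 3 senescent lysates were used, 12 libraries in all, grouped by the sample labels. The authors deposited reads per gene symbol and region, which were treated like expected counts since some values are fractions of a read. The submitters' processing notes name cutadapt 1.18, Bowtie 1.0.1, SAMtools 1.8 and DESeq2 1.22.2. Genome build, annotation, strand rule and handling of reads with several placements are not given in the sources used here. mRNA was the sum of 5′ UTR, CDS and 3′ UTR reads of RNA-seq, and RPF the CDS reads of Ribo-seq. Sums were rounded for the tests, which had been planned for plain counts.

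The quasi-likelihood test of edgeR 4.0.16 (R 4.3.3), two-sided, was fitted to all genes that filterByExpr kept, and TMM factors were set for RNA-seq and Ribo-seq separately. The threshold was the published false discovery rate, an adjusted p-value (Benjamini-Hochberg) under 0.15. TE was tested as the interaction of library type with state, with the lysate as a block, over genes kept in both types and with factors from those genes. Log2 TE per lysate used 0.5 as pseudocount. Approximate 95% intervals are normal. The floor of 3 reads covers counting error only, since PCR copies are not separate molecules. The methods describe the replicates of each state as grown independently, of a single line, so p-values measure the spread between such cultures. Coding lengths, used in place of planned RefSeq protein lengths, exons and overlaps are from GENCODE v44lift37 on GRCh37, which may not be the authors' build.

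The 10 genes and all lists were chosen with earlier results of these data known. The text names these 10, the cyclin D and E and E2F lists in full, and of each other list the 2 called genes that rose and the 2 that fell most in mRNA. The tests were checked on simulated counts. Alternatives were other scalings, no filter on low counts (at least 1 read), DESeq2 1.42.0, voom (limma 3.58.1), a replicate block, lysates left out, a threshold of 0.05, CDS reads alone as mRNA and, for TE, no lysate block.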

Additional observations from a re-analysis of the deposited data

Results flagged for a closer look

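The change with senescence differed between RPF and mRNA, by the test of the interaction, for 2 of the 6 genes in which it could be tested. For CDKN2A the change in RPF exceeded the change in mRNA by 0.96 on the log2 scale (edgeR adjusted p = 0.0027). The log2 TE of its lysates overlapped between the states, with 5 footprints in Pro 1 and 4 in Sen 2. The cause of this overlap was not tested. For CDKN2B the excess was 1.04 (adjusted p = 0.081), with no footprint in Sen 2. Over all genes, 10.0% passed the same threshold.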

How the results depend on the processing

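The number of members changed in mRNA was 8 under every alternative run, each replicate left out included, and that in RPF lay between 3 and 6. In TE, 2 members had passed the threshold. This number was 0 with DESeq2, voom and the replicate block (0, 2 and 2 members at an unadjusted p under 0.05, and 3 with edgeR as reported), 1 without the filter on low counts and at an adjusted p-value under 0.05, 4 without the lysate block, and 0 to 3 with 1 replicate left out. It was 0 without Sen 1 and 1 without Pro 2, Pro 3 or Sen 3, and the cause was not tested. Factors from the genes of each library type, an alternative chosen after seeing the data, gave 2. Over all genes, 751 TE calls became 28 with DESeq2, 47 with voom, 144 with the replicate block, 259 at 0.05, 428 without the filter, 1339 without the lysate block, 1183 without both shallow lysates and 150 to 1146 with 1 replicate left out. The 4088 RPF calls became 1164 with DESeq2, 2336 with the replicate block and 2681 without Sen 1. The sign turned for 2 genes that were not called, RBL2 mRNA (-0.042 on library totals) and RB1 mRNA (0.058 without Pro 3 and 0.071 without Sen 1, in a range from -0.12 to 0.071 with 1 replicate left out). The counts for the pathway lists moved by over 1.5 times in 77 of 423 cases, 54 of them in TE, 22 in RPF and 1 in mRNA.

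The states share replicate numbers, but same-numbered libraries deviated together only weakly (correlations of -0.06 to 0.07 in mRNA and 0.03 to 0.05 in RPF). Such weak correlations cannot settle whether the numbers make pairs, and the sources do not say. All 6 Ribo-seq libraries correlated best with their own number, against 2 of 6 in RNA-seq. These matches come from the same few correlations and are not independent, so they cannot settle the pairing either. The replicate block ended the calls of RB1 in RPF and of CDKN2A and CDKN2B in TE. Depth limits CDKN1C, CDKN2C, CDKN2D and RBL1 in RPF, and every member but CDKN1A in the shallow libraries.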
